A study of Mus musculus with 18 samples.

Results

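The cytokine mRNA decay factors examined here are 5 mouse genes, Zfp36, Zfp36l1, Zfp36l2, Zc3h12a and Elavl1, whose proteins bind cytokine mRNAs and set how long these persist. The rule lists them by name and uses no measured value, although the set was drawn up with earlier results of these data known, and all 5 were found among the 54446 genes of the normalized table by matching the Ensembl identifier to the symbol. RNA sequencing was performed on eosinophils of mice with an Il5 transgene (Il5Tg), labelled as strain C57BL/6, which were taken from the peritoneal cavity and depleted of cells carrying Thy1.2 or B220. Every culture held apoptotic cells (ACs), made from wild-type thymocytes with dexamethasone, at 5 ACs per eosinophil for 18 h. Siglec-F beads were used to recover the eosinophils after culture, and 3 libraries were made per group with CEL-Seq2, which reads the 3′ end of each mRNA.

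The Type 1 experiment (12 libraries) held eosinophils with ACs alone and with 3 added stimuli, which were E. coli, IFN-γ, and IFN-γ followed by E. coli. The IL-4 experiment (6 libraries) held eosinophils with ACs alone and with IL-4 added. The labels give all 6 ACs libraries the same treatment, and 3 were assigned to each experiment because their sample descriptions are written like those of its stimulated libraries. On that assignment, each stimulus was compared with the ACs libraries of its own experiment, so every difference below is a response in cells that had met ACs. Eosinophils without ACs were not analysed here. The eosinophils came from a mouse in which excess IL-5 raises their number, which limits them as a model of resting eosinophils, and the age of the eosinophil donors was not given in the sources used here.

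Unstable cytokine mRNAs carry AU-rich elements in their 3′ untranslated region (UTR). Zfp36 encodes tristetraprolin, and Zfp36l1 and Zfp36l2 encode its close relatives. Their zinc fingers bind the AU-rich element and bring the CCR4-NOT deadenylase, which shortens the poly(A) tail and starts decay. Zc3h12a encodes Regnase-1, an endonuclease that cuts stem-loops in the UTR of mRNAs such as Il6, and its protein is inactivated by phosphorylation after Toll-like receptor signalling and by the protease MALT1. Elavl1 encodes HuR, which binds the same U-rich stretches and usually protects the mRNA. In macrophages these genes are known as feedback regulators, since inflammatory signals switch on both the cytokines and the factors that remove cytokine mRNA.

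The core element of the Zfp36 family is the heptamer TATTTAT, with U for T in the mRNA. It was searched on the mRNA strand only, overlapping copies included, in the longest 3′ UTR annotated for each gene. Zfp36, Zfp36l1 and Zfp36l2 held 3 copies each, in UTRs of 774, 1835 and 1822 bases. Elavl1 held 8 copies in 4218 bases, and Zc3h12a held 0 in 856 bases. Of 20999 coding genes, 27.6% held at least 1 copy, with a median UTR of 961 bases, and 20 of 26 listed target mRNAs of the decay factors did. These mRNAs were listed as known targets, so their share is not independent of the motif. The sites below show the heptamer in 4 of the 5 factors beside those of 2 targets that are described later. Each line gives 27 bases of GRCm38 in the direction of the mRNA, with the heptamer or its merged overlapping copies in capitals. A match is a stretch of letters, not a measured binding site.
Zfp36, chr7:28376967-28376993 (-): gtgggcccttTATTTATgacgacttta
Zfp36l1, chr12:80108423-80108449 (-): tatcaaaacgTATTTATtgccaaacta
Zfp36l2, chr17:84184915-84184941 (-): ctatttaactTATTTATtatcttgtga
Elavl1, chr8:4285785-4285811 (-): gaaaatTATTTATTTATTTATTTATtt
Ptgs2, chr1:150105787-150105813 (+): ctactgaccaTATTTATTTATTTATgt
Il10, chr1:131024386-131024412 (+): ctctccgaaaTATTTATtacctctgat

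Libraries held 779421 to 7782072 reads on genes, with a median of 4461121. Replicate 3 was the shallowest library of each group in the IL-4 experiment, with 849705 reads for IL-4 + ACs and 779421 for ACs, so that 1 read stands for a normalized count of 5.14 and 5.36 there. The normalized count is the reads on a gene divided by a size factor of the library. Of the eosinophil markers, Siglecf was between 1514 and 3367 in all libraries. In the Type 1 experiment it was 3169 to 3367 with ACs alone and 2508 to 2817 with E. coli + ACs. It was 1514 to 1702 with IFN-γ + ACs and 1728 to 2020 with IFN-γ + E. coli + ACs. Ccr3 was higher in the last group (4005 to 4934) than with ACs alone (3211 to 3385). Il5ra was lower there, at 299 to 381 against 388 to 455 with ACs alone. With E. coli + ACs it was 230 to 338, and with IFN-γ + ACs 248 to 291. Prg2 was at 75.85 to 90.26 with ACs alone and at 116.91 to 132.27 with E. coli + ACs. Its range was 57.46 to 106.6 with IFN-γ + ACs and 67.18 to 79.83 with IFN-γ + E. coli + ACs. Epx (eosinophil peroxidase) was at 0 to 3.27 in Type 1 libraries and at 5.26 to 25.7 in those of the IL-4 experiment. Genes listed as peritoneal macrophage markers were abundant, with the sum over 6 of them (Adgre1, Csf1r, Gata6, Timd4, Lyz2, Cd68) between 6624 and 17550. Whether the eosinophils themselves expressed any of these 6 genes, Adgre1 included, cannot be told from bulk libraries. The sum hides opposite changes. With IFN-γ + E. coli + ACs, Adgre1 was at 2717 to 3140 against 1698 to 1874 with ACs alone. The means of Csf1r, Gata6, Timd4, Lyz2 and Cd68 were all lower there, Cd68 at 371 against 1114 and Gata6 at 36.2 against 143. Sums were 16.08 to 160.1 for 10 thymocyte markers, at most 90.76 for 5 B cell markers and at most 43.09 for 5 neutrophil markers. Some thymocyte and neutrophil markers, among them Rag1, Rag2, Mpo and Elane, were at 0 in whole groups. Others were present, with Cd4 at 39.03 to 39.96 with ACs alone in the Type 1 experiment and Lck at 26.98 to 64.21 with E. coli + ACs. Ly6g was at 12.61 to 34.89 with IFN-γ + ACs, and Elane reached 12.03 with ACs alone in the IL-4 experiment. A larger share of cells of a type and more RNA per cell cannot be told apart in these bulk samples. The part of these marker differences in the responses of the 5 genes was not tested.

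Zc3h12a, the endonuclease gene, had the strongest response of the 5. Its normalized counts with ACs alone were 76.4, 71.3 and 71.8. They were 262, 195 and 216 with E. coli + ACs, and the combined stimulus of IFN-γ and E. coli gave 239, 213 and 218. All 6 libraries that received E. coli lay above every other Type 1 library. With IFN-γ + ACs the counts were 119, 105 and 94.4, which lay between those groups without overlap. The gene spans chr4:125118423-125127840 on the minus strand of GRCm38, has up to 6 exons and overlaps no other annotated gene.

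Zc3h12a transcripts rose 3.02-fold with E. coli + ACs over ACs (log2 fold change 1.59 ± 0.16 SE, limma adjusted p = 1.6e-06). They rose 3.02-fold with IFN-γ + E. coli + ACs as well (1.60 ± 0.16, adjusted p = 3.4e-07). The threshold was an adjusted p under 0.05 together with a change of at least 1.5-fold. The combined stimulus did not differ measurably from E. coli + ACs (0.00, 95% interval −0.35 to 0.35, adjusted p = 1). That interval still allows an added change from IFN-γ of up to 0.35 either way on the log2 scale. With IFN-γ + ACs the change was 1.44-fold (0.53 ± 0.16, adjusted p = 0.023), short of the fold threshold. Without the IFN-γ + ACs library of replicate 3 it was 0.61 with an adjusted p of 0.018, past the threshold. The levels therefore ran, from low to high, ACs, IFN-γ + ACs, and then the groups with E. coli, which were not separated from each other. IFN-γ + ACs differed from E. coli + ACs by −1.07 on the log2 scale (adjusted p = 9.1e-05, where 16.6% of all genes were past the threshold). E. coli added to IFN-γ raised the transcript 2.1-fold (1.07, adjusted p = 0.00014, where 14.6% were).

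In the IL-4 experiment Zc3h12a stood at 124, 136 and 85.8 with ACs alone and at 130, 156 and 175 with IL-4 + ACs. The ranges overlapped, and the change of 0.43 (95% interval −0.08 to 0.94, adjusted p = 0.59) did not pass the test. Both replicate 3 libraries rest on few reads, 16 with ACs alone and 34 with IL-4 + ACs, for which counting error alone gives 49.03 to 139.3 and 121 to 244.2 (95% Poisson intervals). The response to IL-4 was below that to E. coli by 1.17 ± 0.26 on the log2 scale (adjusted p = 0.011) and below that to the combined stimulus by 1.17 ± 0.26 (adjusted p = 0.0029), in a fit of all 18 libraries.

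**Figure D1:**
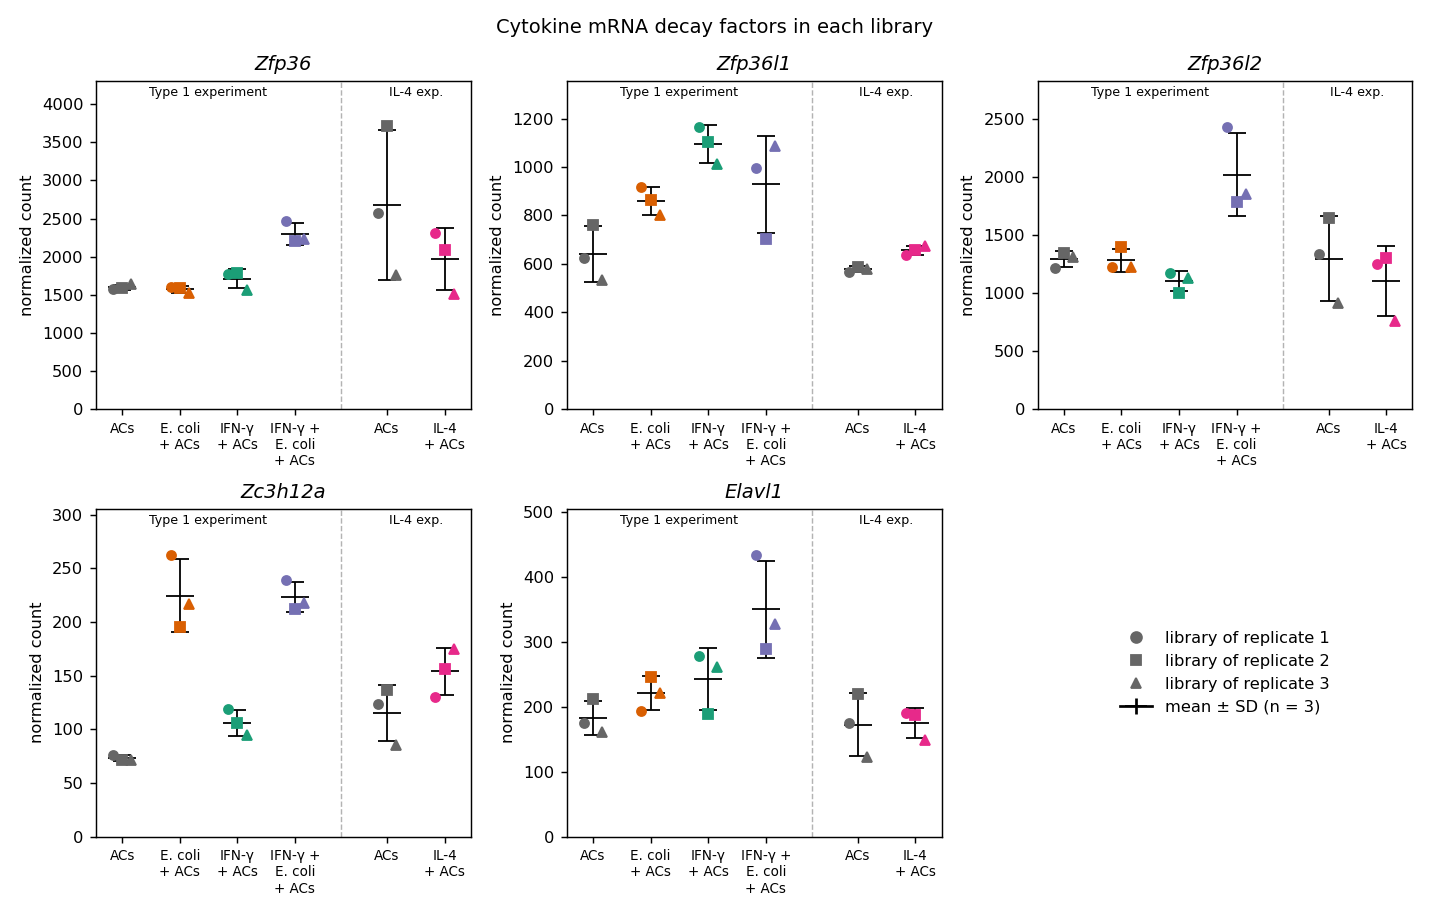
Normalized count (vertical axis, linear from 0) of each of the 5 genes in every library, by group on the horizontal axis, with marker shapes for replicates 1 to 3 and black bars for the mean ± SD (n = 3). Zc3h12a stands at 195 to 262 in the 6 libraries with E. coli against 71.3 to 76.4 with ACs alone, while Zfp36l1 is highest with IFN-γ + ACs (1014 to 1167) and Zfp36, Zfp36l2 and Elavl1 reach their Type 1 maximum with IFN-γ + E. coli + ACs.

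Zfp36, the gene of tristetraprolin, stayed near its level with ACs under either Type 1 stimulus alone. Its normalized counts were 1578, 1586 and 1638 with ACs, 1607, 1582 and 1521 with E. coli + ACs, and 1770, 1790 and 1564 with IFN-γ + ACs. With IFN-γ + E. coli + ACs they were 2466, 2211 and 2227. The 3 libraries of the combined stimulus lay above the other 9, which overlapped one another. The log2 fold change over ACs was −0.03 with E. coli + ACs (95% interval −0.24 to 0.18, adjusted p = 0.91) and 0.09 with IFN-γ + ACs (−0.12 to 0.30, adjusted p = 0.55). It was 0.52 ± 0.10 SE with the combined stimulus (adjusted p = 0.00038), a 1.44-fold change that did not reach 1.5-fold. Against E. coli + ACs the combined stimulus gave 1.46-fold (0.55, adjusted p = 5e-04) and against IFN-γ + ACs 1.35-fold (0.43, adjusted p = 0.0046), both likewise short of the fold threshold.

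In the IL-4 experiment Zfp36 was widely spread, at 2574, 3717 and 1759 with ACs alone and at 2310, 2087 and 1511 with IL-4 + ACs. The ranges overlapped, and the replicate 3 library was the lowest of each group. The change was −0.40 (95% interval −0.97 to 0.16, adjusted p = 0.65), which did not pass the test. The ACs libraries of the Type 1 experiment gave 1600 ± 32.5 and those of the other 2683 ± 984 (SD, n = 3), and the experiment and the library set cannot be told apart in that difference.

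The window of the Zfp36 promoter was read because its mRNA is the best known immediate early gene of the family. RefSeq promoters of GRCm38.p6, 250 bases before to 50 after the start, were present for 4 of the 5 genes, and Zfp36l2 had no entry. Both strands were searched for NF-kB sites, the interferon-stimulated response element (ISRE), GAS (TTCNNNGAA), AP-1 (TGANTCA), CArG box and EGR (GCGNGGGCG) motifs, and no hits overlapped. The Zfp36 window held an EGR motif, a CArG box and a GAS, whose first bases lie 105, 58 and 17 bases before the start. These motifs occur in 5.55%, 1.63% and 8.3% of 32851 promoters. Zfp36l1 held an AP-1 motif (7.81% of promoters) 129 bases before its start. The windows of Zc3h12a and Elavl1 held none of the 6 motifs, and no factor's window held an NF-kB site (8.46% of promoters) or an ISRE (3.44%). The windows of Zfp36, with its motifs in capitals, and of Zc3h12a, the strongest responder, are given here, and no match in a window says nothing of the factor elsewhere. The Zfp36 window lies inside the span that GENCODE annotates for the gene (chr7:28376784-28380253, minus strand).
Zfp36, chr7:28379179-28379478 (-): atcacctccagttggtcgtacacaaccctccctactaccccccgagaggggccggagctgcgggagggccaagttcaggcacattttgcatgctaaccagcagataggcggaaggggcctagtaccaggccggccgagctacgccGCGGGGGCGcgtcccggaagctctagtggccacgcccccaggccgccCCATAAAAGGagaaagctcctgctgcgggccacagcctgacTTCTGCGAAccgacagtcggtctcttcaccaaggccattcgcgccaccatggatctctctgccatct
Zc3h12a, chr4:125127832-125128131 (-): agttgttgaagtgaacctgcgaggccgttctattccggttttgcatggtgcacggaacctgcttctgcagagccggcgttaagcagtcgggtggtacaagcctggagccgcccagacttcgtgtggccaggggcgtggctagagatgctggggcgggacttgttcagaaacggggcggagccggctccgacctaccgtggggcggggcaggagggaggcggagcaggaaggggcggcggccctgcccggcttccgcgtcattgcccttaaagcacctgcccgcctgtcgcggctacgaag

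Zfp36l1, the relative known for its part in lymphocyte development, was the only one of the 5 past the threshold with IFN-γ + ACs. Its normalized counts were 623, 762 and 533 with ACs and 1167, 1105 and 1014 with IFN-γ + ACs. They were 917, 862 and 801 under E. coli + ACs, and 995, 704 and 1089 under the combined stimulus. Both single stimuli lay above all ACs libraries, whereas replicate 2 of the combined stimulus fell inside the ACs range. Transcripts rose 1.73-fold with IFN-γ + ACs (log2 fold change 0.79 ± 0.15 SE, adjusted p = 0.00073). The changes with E. coli + ACs (1.36-fold, 0.44 ± 0.15, adjusted p = 0.068) and with IFN-γ + E. coli + ACs (1.44-fold, 0.53 ± 0.15, adjusted p = 0.011) were not past the threshold. The latter reached 0.72 without replicate 2 of the combined stimulus and 0.66 without replicate 2 of ACs, past the threshold in each case. None of the differences between the 3 stimulated groups passed the test. IFN-γ + ACs exceeded E. coli + ACs by 0.35 (adjusted p = 0.13), with ranges that did not overlap, and the combined stimulus differed from IFN-γ + ACs by −0.26 (adjusted p = 0.26) and from E. coli + ACs by 0.09 (adjusted p = 0.72).

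The summed macrophage markers were also highest in IFN-γ + ACs within the Type 1 experiment, at 13470 to 15840 against 8371 to 10620 with ACs alone. They were 6624 to 7708 with E. coli + ACs and 7465 to 9131 with the combined stimulus. Lyz2 made up most of that sum (8836 to 10593 with IFN-γ + ACs), and 2 of the 6 markers passed the threshold upwards in that comparison. Only Csf1r had a lower mean with IFN-γ + ACs than with ACs alone (1053 against 1170). Cd68 overlapped, at 876 to 1571 against 978 to 1354. The summed eosinophil markers were lowest there, at 4493 to 5301 against 6859 to 7285. The part of either in the Zfp36l1 result was not tested. The antisense neighbour Gm26669, which overlaps Zfp36l1 (chr12:80107754-80113013, minus strand), was at 1.38 to 26.81 in all libraries, and whether counting used the strand is not given in the sources used here.

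With IL-4 + ACs, Zfp36l1 counts were 636, 658 and 673 against 564, 589 and 579 with ACs alone. The groups did not overlap, but the difference was small at 1.14-fold (0.18, 95% interval −0.09 to 0.46, adjusted p = 0.68). It was the only one of the 5 genes without overlap in that comparison, in which 17.3% of all genes tested had none.

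Zfp36l2, the third member of the family, was past the threshold under the combined stimulus and under none of the other 3. Its normalized counts were 1217, 1349 and 1315 with ACs, 1229, 1401 and 1222 with E. coli + ACs, and 1178, 1004 and 1133 with IFN-γ + ACs. With IFN-γ + E. coli + ACs they were 2433, 1785 and 1853. Only the combined stimulus lay above ACs, and the IFN-γ + ACs libraries lay just below all ACs libraries. Transcripts rose 1.55-fold with the combined stimulus (log2 fold change 0.63 ± 0.12 SE, adjusted p = 0.00048). The single stimuli gave −0.01 (95% interval −0.27 to 0.25, adjusted p = 0.97) and −0.23 (−0.49 to 0.03, adjusted p = 0.19). Replicate 1 of the combined stimulus was the highest library, and without it the change over ACs was 0.49, short of the fold threshold. Rescaling all libraries to a common upper quartile also gave 0.49. The combined stimulus exceeded E. coli + ACs by 0.64 (adjusted p = 0.00083, where 19.4% of all genes were past the threshold), or 0.50 without that library and 0.54 with upper quartile scaling, both short of the fold threshold, and IFN-γ + ACs by 0.86 (adjusted p = 7.1e-05). The difference between IFN-γ + ACs and E. coli + ACs did not pass the test (−0.22, adjusted p = 0.25), although the libraries of the former lay below all of the latter.

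In the IL-4 experiment Zfp36l2 stood at 1338, 1645 and 911 with ACs alone and at 1255, 1303 and 756 with IL-4 + ACs. The ranges overlapped, and the change was −0.23 (95% interval −0.80 to 0.33). The gene spans chr17:84183931-84187947 on the minus strand and is overlapped by AC132455.1 on the other strand, for which no value was matched.

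Elavl1, the gene of the stabilizing protein HuR, was, like Zfp36 and Zfp36l2, highest under the combined stimulus in the Type 1 experiment. Its normalized counts were 175, 212 and 161 with ACs, 194, 246 and 222 with E. coli + ACs, and 278, 189 and 261 with IFN-γ + ACs. The combined stimulus gave 433, 290 and 327, and these 3 libraries lay above the other 9. Transcripts rose 1.90-fold with the combined stimulus (log2 fold change 0.92 ± 0.18 SE, adjusted p = 0.00054). The changes with E. coli + ACs (0.28, 95% interval −0.11 to 0.66, adjusted p = 0.38) and IFN-γ + ACs (0.40, 0.02 to 0.78, adjusted p = 0.12) did not pass the test, and their ranges overlapped that of ACs.

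The combined stimulus exceeded E. coli + ACs 1.57-fold in Elavl1 (0.65, adjusted p = 0.014). That difference was 0.48 (adjusted p = 0.081) without replicate 1 of the combined stimulus and 0.56 (adjusted p = 0.071) without replicate 1 of E. coli + ACs, and it was 0.54 with upper quartile scaling, short of the fold threshold. Against IFN-γ + ACs it was 0.52 (adjusted p = 0.051), and it passed the threshold without replicate 2 of the combined stimulus (0.65) or replicate 1 of IFN-γ + ACs (0.63). With IL-4 + ACs the counts were 190, 187 and 149 against 174, 220 and 123 with ACs alone, a change of 0.05 (95% interval −0.47 to 0.57). The gene spans chr8:4285382-4325413 on the minus strand. It is overlapped on the other strand by Ccl25, a chemokine gene at 4.69 to 66.82 in all libraries.

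Counted over the 5 genes, E. coli + ACs raised 1 (Zc3h12a), where 10.3% of 10166 genes tested were past the threshold and 5.05% were higher. IFN-γ + ACs raised 1 (Zfp36l1), against 21.4% in either direction and 11.4% higher. IFN-γ + E. coli + ACs raised 3 (Zfp36l2, Zc3h12a and Elavl1), against 31.9% and 14.7%. None of the 5 fell in these comparisons. IL-4 + ACs moved 0 of the 5 by limma, against 1.09% of 10669 genes. At an unadjusted p under 0.05 the count was also 0, as it was by edgeR and by DESeq2 at the threshold on the recovered reads. With so few genes, these shares describe the 5 genes and set them apart from no others.

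Ranges that did not overlap with those of ACs were found for 2 of the 5 genes with E. coli + ACs (38.3% of all genes), 3 with IFN-γ + ACs (42.9%) and 4 with the combined stimulus (48.8%). The median log2 fold change of the 5 was 0.28, 0.40, 0.63 and 0.05 in the order E. coli, IFN-γ, combined and IL-4, beside medians over all genes of 0, 0, −0.05 and −0.01. Upper quartile scaling moved the median of all genes to −0.18 with the combined stimulus, and the calls there from 1494 higher and 1746 lower to 1155 higher and 2200 lower. The Type 1 comparisons share their ACs libraries.

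**Figure D2:**
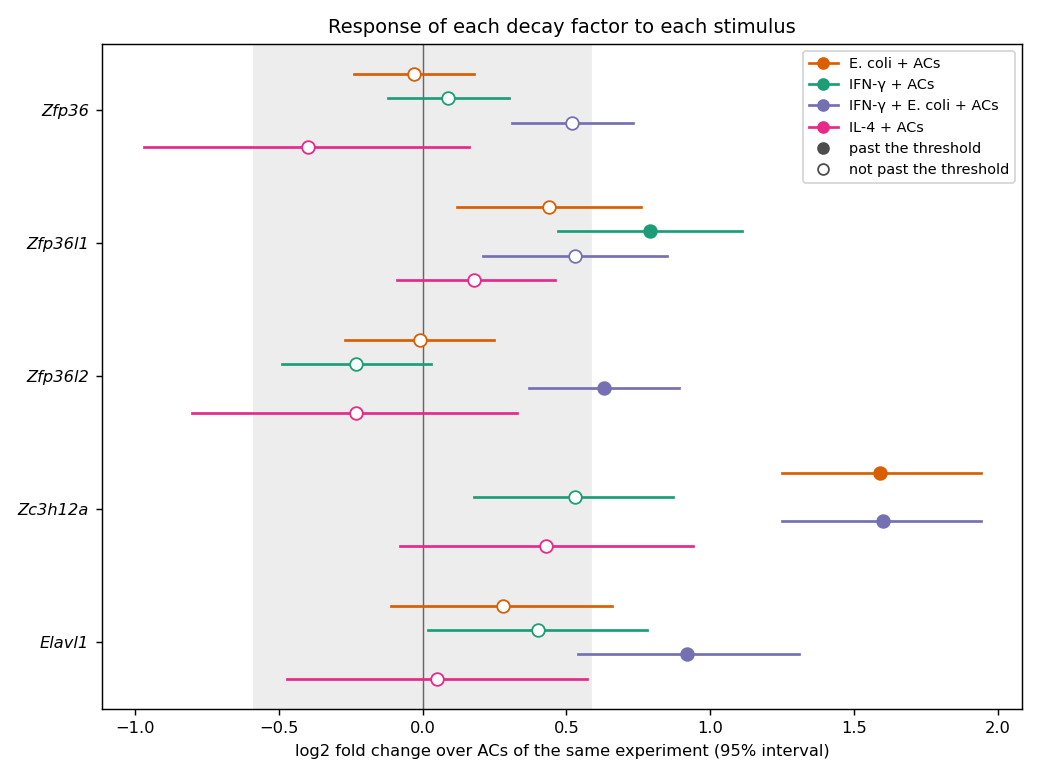
Log2 fold change over ACs of the same experiment (horizontal axis) for each gene and stimulus, with bars for the 95% interval, filled points for changes past the threshold and a grey band for changes under 1.5-fold. Filled points are Zc3h12a with E. coli and with the combined stimulus (1.59 and 1.60), Zfp36l1 with IFN-γ (0.79), and Zfp36l2 and Elavl1 with the combined stimulus (0.63 and 0.92), while every IL-4 interval includes 0.

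Whether IFN-γ and E. coli together gave more or less than the sum of each alone was tested as an interaction. For Zfp36l2 the single responses summed to −0.24 on the log2 scale and the combined response was 0.63, so that it exceeded the sum by 0.87 ± 0.18 SE (adjusted p = 0.0043). Of all genes, 7.44% were past the threshold in this test and 3.16% were higher. In a fit of all 18 libraries the same difference of 0.87 had an adjusted p of 0.071. For Zfp36 the sum was 0.06 and the combined response 0.52, a difference of 0.46 ± 0.14 (adjusted p = 0.054). For Elavl1 the sum was 0.67 and the combined response 0.92, a difference of 0.25 ± 0.26 (adjusted p = 0.63).

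Zfp36l1 and Zc3h12a had the opposite sign. The single responses of Zfp36l1 summed to 1.23 and the combined response was 0.53, a difference of −0.70 ± 0.22 (95% interval −1.16 to −0.24, adjusted p = 0.058). It passed the threshold when replicate 3 of the combined stimulus (−0.83), replicate 3 of IFN-γ + ACs (−0.75) or replicate 2 of ACs (−0.83) was left out. For Zc3h12a the sum was 2.12 and the combined response 1.60, a difference of −0.52 ± 0.23 (adjusted p = 0.19).

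**Figure D3:**
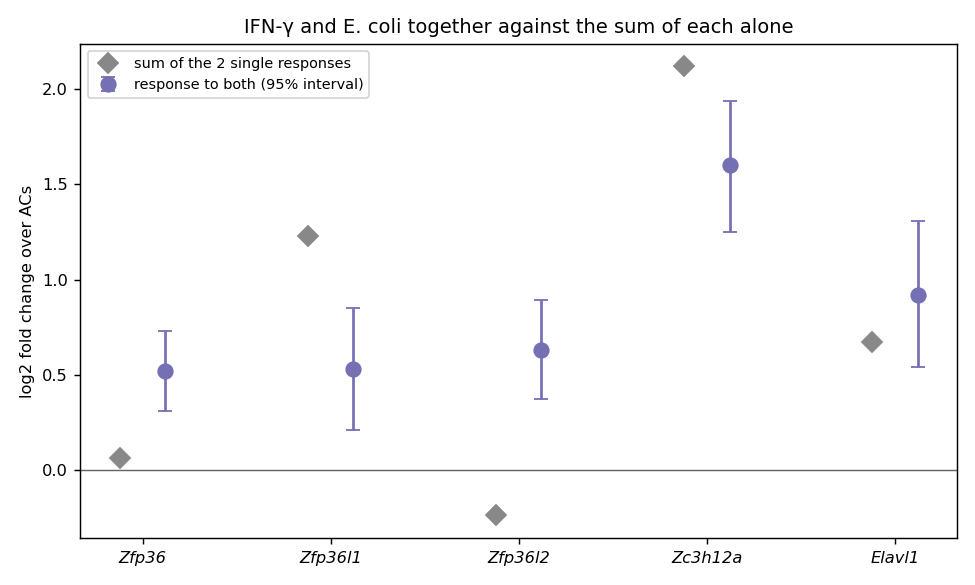
Log2 fold change over ACs (vertical axis) of each gene with IFN-γ + E. coli + ACs (circles, bars for the 95% interval) beside the sum of the responses to IFN-γ and to E. coli alone (diamonds). Zfp36l2 lies 0.87 above its sum, the only difference past the threshold, and Zfp36l1 lies 0.70 below its sum.

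The response to IL-4 was also compared with each Type 1 response, in a fit of all 18 libraries where each response was taken against its own ACs. Of the 5, 1 (Zc3h12a) differed between IL-4 and E. coli, a comparison in which 4.43% of 10414 genes were past the threshold. Between IL-4 and IFN-γ none of the 5 differed, against 14.3% of genes. The nearest was Zfp36l1 at −0.61 (adjusted p = 0.053), which passed the threshold at −0.74 without replicate 2 of the Type 1 ACs. Zfp36 passed at −0.77 without replicate 3 of the ACs of the IL-4 experiment, from −0.49 with all libraries.

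Between IL-4 and the combined stimulus 4 of the 5 differed, against 20.4% of genes in either direction and 10.8% with the lower value for IL-4. The IL-4 response was lower by 0.92 ± 0.26 SE for Zfp36 (adjusted p = 0.014), with responses of −0.40 and 0.52. It was lower by 0.87 ± 0.28 for Zfp36l2 (adjusted p = 0.029) and by 0.87 ± 0.30 for Elavl1 (adjusted p = 0.041). The Zfp36l2 difference lost its call without replicate 3 of IL-4 + ACs (−0.61), replicate 1 or 2 of the ACs of that experiment (−0.82 and −0.67), replicate 1 of the combined stimulus (−0.73), or replicate 1 or 3 of the Type 1 ACs (−0.82 and −0.88). Elavl1 lost it without any of these (−0.76, −0.84, −0.68, −0.71, −0.84 and −0.78 in that order), and without replicate 2 of IL-4 + ACs (−0.92) or replicate 3 of the combined stimulus (−0.91). Upper quartile scaling (−0.74 for each) and the lack of a filter on low values (−0.87 for each) also ended both calls. The calls for Zfp36 and Zc3h12a held without any single library. For Zfp36l1 the difference was −0.35, not past the threshold.

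Across libraries, Zfp36 and Zfp36l2 ran together, with a Pearson r of log2 levels of 0.84 over the 12 Type 1 libraries and 0.94 over the 6 libraries of the IL-4 experiment. Elavl1 ran with Zfp36 (0.78 and 0.81) and with Zfp36l2 (0.77 and 0.85). Zfp36l1 and Zfp36l2 had r = 0.01 in the Type 1 experiment and −0.40 in the other. These values are descriptions, since the points share their groups and their scaling. In the IL-4 experiment the shallow replicate 3 library was also the lowest of each group for Zfp36, Zfp36l2 and Elavl1. The r there was not computed without these libraries. Among 6746 genes with a mean of at least 50, those most like Zfp36 over the 12 libraries were Wipf1 (r = 0.96), Cyld (0.96) and Mcl1 (0.95), with 0.87, 0.43 and 0.82 in the IL-4 experiment. Those most like Zc3h12a were Trem1 (0.97), an amplifying receptor of myeloid cells, Mbd2 (0.97) and Ptgs1 (0.96). None of these 3 kept the likeness in the IL-4 experiment (0.08, −0.40 and −0.03), where Zc3h12a rests on as few as 16 reads.

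The genes most like Zfp36l1 were Erp44 (0.97), Rala (0.93) and Uqcrb (0.93), with 0.61, −0.52 and −0.65 in the IL-4 experiment. Those most like Zfp36l2 were Elf4 (0.95), Gsn (0.94) and Dapp1 (0.94), with 0.81, 0.75 and 0.08. Those most like Elavl1 were Stat5b, Srsf4 and Zfp746 (0.95 each), with 0.78, 0.14 and −0.19.

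Of 19 other genes whose proteins bind cytokine mRNAs, 13 were tested. With E. coli + ACs 1 rose, with IFN-γ + ACs 2, with the combined stimulus 5 and with IL-4 + ACs 0, and none fell past the threshold. These are 7.69%, 15.4% and 38.5% of the tested genes in the Type 1 comparisons, against 10.3%, 21.4% and 31.9% of all genes. Zc3h12c, a relative of Zc3h12a, rose in each Type 1 group, 2.74-fold with E. coli (1.45 ± 0.33 SE, adjusted p = 0.0049), 3.66-fold with IFN-γ (1.87 ± 0.33, adjusted p = 0.00024) and 5.56-fold with both (2.48 ± 0.33, adjusted p = 7.3e-06). Its normalized counts were 10.32 to 17.13 with ACs alone and 68.41 to 89.68 with both. Arid5a, whose protein protects Il6 mRNA from Regnase-1, rose 1.69-fold with IFN-γ + ACs (adjusted p = 0.011). Hnrnpd, the gene of the AU-rich element binding protein AUF1, rose 1.87-fold with both (0.91 ± 0.12, adjusted p = 7.2e-06).

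Of 19 genes of the deadenylases that the Zfp36 family recruits and of their partners, all tested, 1 rose and 2 fell with E. coli + ACs, 1 rose and 2 fell with IFN-γ + ACs, and 1 rose and 4 fell with the combined stimulus. Their shares of 15.8%, 15.8% and 26.3% compare with 10.3%, 21.4% and 31.9% of all genes. Cnot8, a catalytic subunit, rose 1.55-fold with E. coli + ACs (adjusted p = 0.0043). Cnot7, another catalytic subunit among several, rose 1.67-fold with IFN-γ + ACs (adjusted p = 0.0097) and 2.6-fold with both (1.38 ± 0.20, adjusted p = 2.1e-05). Btg2, an antiproliferative gene whose protein binds the CCR4-NOT complex, fell with E. coli + ACs (log2 fold change −0.95, adjusted p = 1.4e-05) and with IFN-γ + ACs (−1.60, adjusted p = 4.8e-09). Its counts were 1131 to 1202 with ACs and 364 to 404 with IFN-γ + ACs. With both they were 526 to 602, also below all ACs libraries. Tob1, of the same protein family, fell in the E. coli, IFN-γ and combined groups (log2 fold changes −1.25, −1.09 and −1.12, adjusted p = 0.016, 0.019 and 0.011). Parn, another deadenylase, fell by 1.16 with both (adjusted p = 0.007).

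Of 17 decapping and 5′ decay genes, 15 were tested in the Type 1 experiment. With E. coli + ACs 0 passed, with IFN-γ + ACs 1 rose and 1 fell, and with both 2 rose and 1 fell, which is 0%, 13.3% and 20% of those tested and below the share of all genes (10.3%, 21.4% and 31.9%) each time. Patl1, a decapping activator, rose 1.64-fold with IFN-γ + ACs (adjusted p = 0.0052) and 2.33-fold with both (1.22 ± 0.18, adjusted p = 2.1e-05). Lsm14a rose by 0.77 with both (adjusted p = 1.3e-05), and Lsm7 fell with IFN-γ + ACs (−1.27, adjusted p = 0.011) and with both (−1.01, adjusted p = 0.028).

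Of 15 genes of the exosome and its SKI partners, which degrade RNA from the 3′ end, 13 were tested. With E. coli + ACs 0 passed, with IFN-γ + ACs 2 fell, and with both 1 rose and 4 fell. The shares called were 0%, 15.4% and 38.5%, beside 10.3%, 21.4% and 31.9% of all genes. Exosc7, a core subunit, fell with IFN-γ + ACs (log2 fold change −1.46, adjusted p = 0.00037) and with both (−2.27 ± 0.27, adjusted p = 1.7e-06), from counts of 179 to 199 with ACs alone to 34.2 to 47.6. Exosc3 fell by 0.62 with IFN-γ + ACs (adjusted p = 0.026), Exosc5 fell by 0.98 with both (adjusted p = 0.019), and Exosc8 rose by 0.71 with both (adjusted p = 0.0073).

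Of 12 kinases, phosphatases, proteases and helicases that act on the decay factors, all tested, 3 rose and 2 fell with E. coli + ACs, 3 rose and 1 fell with IFN-γ + ACs, and 4 rose and 2 fell with both. That is 41.7%, 33.3% and 50% of the list, beside 10.3%, 21.4% and 31.9% of all genes. Malt1, the protease that cleaves Regnase-1, rose 1.73-fold with E. coli + ACs (0.79 ± 0.22, adjusted p = 0.022), 1.73-fold with IFN-γ + ACs (0.79 ± 0.22, adjusted p = 0.012) and 2.92-fold with both (1.55 ± 0.22, adjusted p = 1.7e-05). Mapk14, the gene of p38α at the head of the pathway that phosphorylates tristetraprolin, fell in the same order (log2 fold changes −0.95, −1.24 and −1.63, adjusted p = 7.8e-05, 1.3e-06 and 2.2e-08). Its counts were 893 to 1065 with ACs alone and 281 to 352 with both. Mapkapk2, the gene of the kinase that p38α activates and that acts on tristetraprolin directly, rose 2.14-fold with E. coli + ACs (1.10 ± 0.18, adjusted p = 0.00037). Its counts, 191 to 219 with ACs alone, were also higher with IFN-γ + ACs (306 to 339) and with both (272 to 503).

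Dusp1, the gene of the phosphatase that switches p38 off, fell with E. coli + ACs (−0.80, adjusted p = 8.9e-05) and with both (−0.71, adjusted p = 7.9e-05). Tbk1, a kinase gene of antiviral signalling, rose 1.90-fold with IFN-γ + ACs (0.93 ± 0.15, adjusted p = 8.4e-05) and 2.11-fold with both (1.08 ± 0.15, adjusted p = 1e-05). With IL-4 + ACs 0 of the tested genes in these 5 lists passed the threshold.

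Of 26 known target mRNAs of the decay factors, 19 were tested in the Type 1 experiment. With E. coli + ACs 14 rose and 1 fell, with a median log2 fold change of 1.56. With IFN-γ + ACs 7 rose and 1 fell, with a median of 0.44. With both 15 rose and 1 fell, with a median of 2.18. The shares past the threshold were 78.9%, 42.1% and 84.2%, against 10.3%, 21.4% and 31.9% of all genes, of which 5.05%, 11.4% and 14.7% were higher. The list was put together from inflammatory mRNAs, so its direction is not independent of the kind of stimulus.

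Csf3, the granulocyte growth factor gene, stood at 4.88, 4.69 and 9.79 with ACs and at 90.4, 63.8 and 113 with E. coli + ACs, a 12.3-fold rise (3.62 ± 0.42, adjusted p = 7.2e-06). Il10 rose 8.68-fold in the same comparison (3.12 ± 0.28, adjusted p = 2.8e-07), with counts of 22.5 to 48.0 under ACs alone and 209 to 343 under E. coli + ACs. These groups of Il10 did not overlap, and its mRNA carries the site printed above. Il10 counts were lower than with E. coli + ACs under IFN-γ + ACs (71.1 to 113) and under both (64.7 to 99.3). In the IL-4 experiment they were 38.2 to 53.6 with ACs alone and 0 to 6.37 with IL-4 + ACs, a difference not past the threshold.

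Ptgs2, the gene of the inducible cyclooxygenase, stood at 20.3, 42.2 and 27.7 with ACs and rose 7.25-fold with IFN-γ + ACs (2.86 ± 0.27, adjusted p = 1.3e-07). With both it stood at 761, 589 and 1036, a 26-fold rise (4.70 ± 0.27, adjusted p = 7.7e-11). The merged heptamers of its UTR are among the sites printed above. Vegfa, the vascular growth factor gene, rose 10.1-fold with IFN-γ + ACs (3.33 ± 0.24, adjusted p = 3.8e-09) and 17.7-fold with both (4.15 ± 0.24, adjusted p = 1e-10). The single target that fell in the Type 1 groups was Fos, an immediate early gene, with E. coli, IFN-γ and both (log2 fold changes −0.93, −0.96 and −1.10, adjusted p = 8.6e-05, 2.4e-05 and 3.3e-06).

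In the IL-4 experiment 17 targets were tested, of which 4 rose and 1 fell (29.4%, against 1.09% of all genes), with a median of −0.12. Il6, the classical target of Regnase-1, stood at 30.1, 27.3 and 64.3 with ACs alone and at 222, 202 and 396 with IL-4 + ACs, a 6.79-fold rise (2.76 ± 0.36, adjusted p = 0.0057). The groups did not overlap, while Zc3h12a in the same libraries did. Cxcl3 rose 4.6-fold (2.20 ± 0.20, adjusted p = 0.00055). Lcn2, the gene of lipocalin, fell by 3.09 ± 0.18 (adjusted p = 9.6e-05), from 1641 to 1930 with ACs alone to 180 to 272 with IL-4 + ACs.

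**Figure D4:**
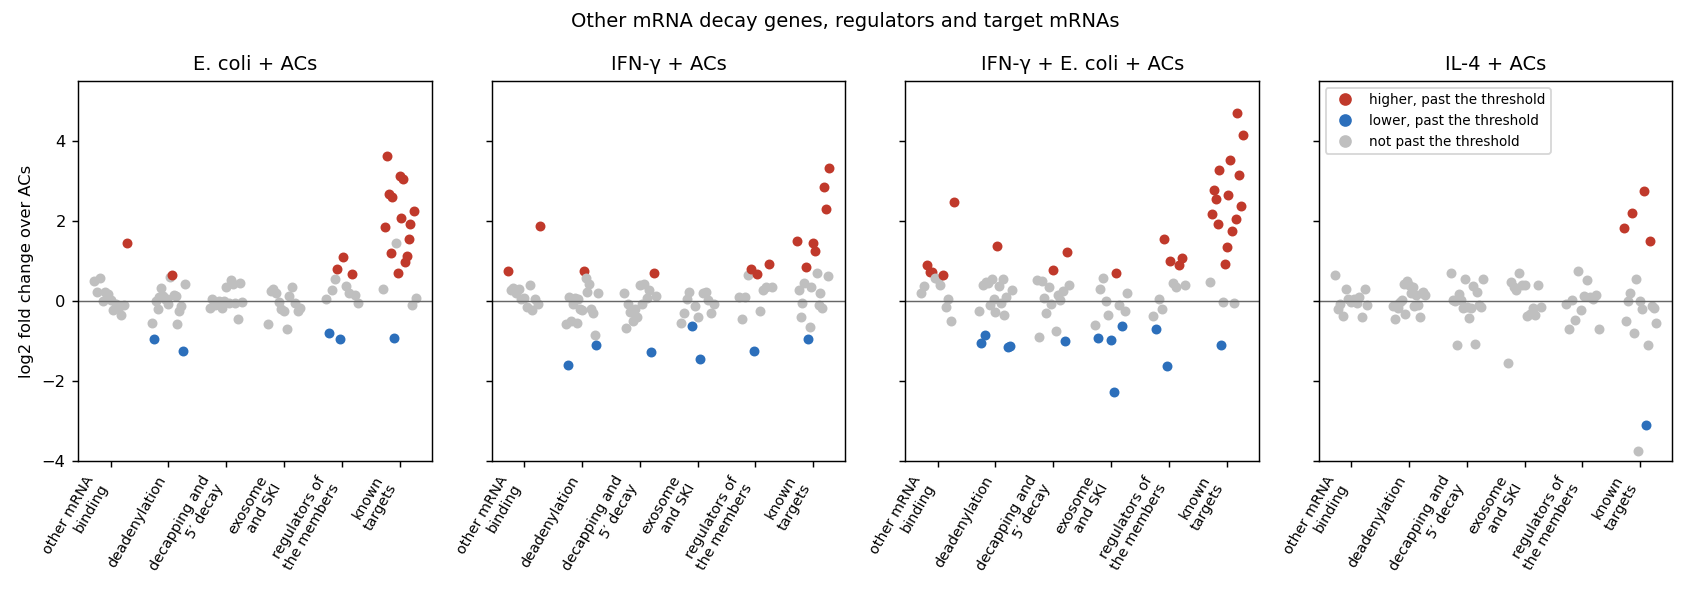
Log2 fold change over ACs (vertical axis) of every tested gene in 6 lists (horizontal axis), by stimulus, in red or blue where higher or lower past the threshold and in grey otherwise. The known targets reach 4.70 with the combined stimulus (Ptgs2) and hold 15 of the red points there, whereas the deadenylase and exosome lists hold 4 blue points each, and the IL-4 panel has coloured points among the targets only.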

How the data were processed

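Each deposited signal is a read count of 1 gene in 1 library after division by a DESeq2 size factor. The submitters' processing notes name Trim Galore with cutadapt 1.10, TopHat2 2.1.0, Bowtie2 2.2.6, HTSeq 0.6.1, DESeq2 1.26.0 and GRCm38. The methods describe 2 pipelines, and which made this table, the strand setting of counting and the use of molecular identifiers are not given in the sources used here. Values were whole multiples of 1 step per library, so that whole reads were recovered for 100.0% of values (tolerance 0.006). Identifiers were matched to symbols for 54409 of 54446 genes.

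Groups and replicate numbers came from the sample descriptions. The methods speak of biological replicates, and separate mice are stated only for another comparison, while the labels give neither, so that p-values measure the spread between these samples. Replicates differed by more than sampling noise (chi-square per degree of freedom 4.19 to 14.69). Intervals on reads cover counting error only.

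Differences were tested with limma 3.58.1 in R 4.3.3 (lmFit, eBayes with a trend) on log2(normalized count + 1), in genes with a mean of at least 10 over the libraries fitted, with Benjamini-Hochberg adjustment over all of them. Fold changes are on that scale, and ± gives the SE or, for levels, the SD. The Type 1 experiment was 1 fit of 12 libraries (10166 genes), the IL-4 experiment of 6 (10669), and differences between IL-4 and Type 1 responses of 18 (10414). Alternatives were edgeR 4.0.16 and DESeq2 1.42.0 on recovered reads, a block for the replicate number, a pseudocount of 5, no filter or a minimum mean of 50, upper quartile scaling, array weights, other sets of libraries, and each library left out.

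The members and lists were chosen with earlier results of these data known. Beyond the 5 genes, the text names in each list and comparison the 2 genes that rose most and the 2 that fell most among those past the threshold without overlap, and for each member the 3 genes with the highest r over the Type 1 libraries. Further values are given for marker genes and for annotated overlapping genes. Promoters are from RefSeq (GRCm38.p6), and gene spans and UTR sites from the GENCODE annotation of GRCm38. The tests were tried on simulated data beforehand.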

Additional observations from a re-analysis of the deposited data

Results flagged for a closer look

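In 6 cases the effects of 2 contrasts differed by a test of the difference itself. The response of Zfp36l2 to IFN-γ and E. coli together exceeded the sum of the single responses by 0.87 on the log2 scale (adjusted p = 0.0043). The response of Zc3h12a to IL-4 was below that to E. coli (difference −1.17, adjusted p = 0.011) and below that to the combined stimulus (−1.17, adjusted p = 0.0029). The IL-4 response was also below the combined response for Zfp36 (−0.92, adjusted p = 0.014), Zfp36l2 (−0.87, adjusted p = 0.029) and Elavl1 (−0.87, adjusted p = 0.041). Of 22 alternatives, 8 ended the last call for Zfp36l2 and 10 that for Elavl1, and the Zfp36l2 excess over the sum had an adjusted p of 0.071 in the fit of all 18 libraries. All p-values are limma's, adjusted over all genes. Groups of 3 libraries are too small for a test of single outlying samples.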

How the results depend on the processing

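Of 1200 values recomputed under alternatives, 1115 stayed on their side of the threshold with no change of sign (for counts, within 1.5 times), 20 passed it newly, 26 no longer passed it, 27 counts moved by more than 1.5 times and 12 changed sign, none of them past the threshold before or after. No sign was read for 2 values at 0.00 (38 alternatives). Where a cause is not named it was not tested. With upper quartile scaling, Zfp36l2 gave 0.49 with the combined stimulus over ACs, Zfp36l2 and Elavl1 gave 0.54 each over E. coli + ACs (0 of the 5 past the threshold), Zfp36l1 gave −0.02 there, and the IL-4 minus combined difference was −0.74 for Zfp36l2 and for Elavl1 (2 past the threshold). Without a filter on low values, which tests more genes, that difference stayed at −0.87 for both but only 2 passed. The Zfp36l1 interaction passed at −0.70 with a mean of at least 50, −0.72 with upper quartile scaling, −0.72 with array weights and −0.64 by DESeq2, giving 2 of the 5 each time, and in the fit of all 18 libraries 0 passed (Zfp36l2 0.87, adjusted p = 0.071). Elavl1 passed over IFN-γ + ACs at 0.64 with array weights. The IL-4 minus IFN-γ difference of Zfp36l1 passed at −0.60 with a pseudocount of 5, −0.61 with a mean of at least 50, −0.64 with array weights and −0.59 by DESeq2, giving 1 of the 5 each. Without replicate 3 of both IL-4 experiment groups, an alternative chosen after seeing the data, Zfp36 passed in its place (−0.59, 1 of the 5), and Elavl1 with IL-4 + ACs was −0.06.

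When single libraries were left out, the number of the 5 past the threshold ranged from 1 to 2 with IFN-γ + ACs, from 2 to 4 with the combined stimulus, from 1 to 2 for the interaction, from 2 to 3 for the combined stimulus over IFN-γ + ACs, from 0 to 2 over E. coli + ACs, from 0 to 1 for IL-4 minus IFN-γ and from 2 to 4 for IL-4 minus the combined stimulus. Values ranged from 0.44 to 0.61 for Zc3h12a with IFN-γ + ACs, and with the combined stimulus from 0.49 to 0.72 for Zfp36l2 and from 0.40 to 0.72 for Zfp36l1. They ranged from −0.83 to −0.51 for the Zfp36l1 interaction, from 0.36 to 0.65 for Elavl1 over IFN-γ + ACs, and over E. coli + ACs from 0.50 to 0.73 for Zfp36l2 and from 0.48 to 0.77 for Elavl1. For IL-4 minus IFN-γ they ranged from −0.77 to −0.23 for Zfp36 and from −0.74 to −0.48 for Zfp36l1, and for IL-4 minus the combined stimulus from −1.10 to −0.61 for Zfp36l2 and from −1.09 to −0.68 for Elavl1. Ranges that crossed 0, with no call, were −0.08 to 0.02 for Zfp36l2 with E. coli + ACs, −0.47 to 0.02 for Zfp36l2 and −0.17 to 0.25 for Elavl1 with IL-4 + ACs, −0.04 to 0.28 for Zfp36l1 with the combined stimulus over E. coli + ACs, −0.45 to 0.03 for Zfp36l2 in IL-4 minus E. coli and −0.29 to 0.04 for Zc3h12a in IL-4 minus IFN-γ.

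Same-numbered libraries did not deviate together (r of −0.09 to 0.09 over 18 Type 1 pairs and 0 to 0.02 over 3 IL-4 pairs). With 3 libraries per group this cannot exclude that the numbers pair samples. In the IL-4 experiment, replicate 3 was the shallowest library of both groups. The replicate block left the calls of the 5 genes as they were, at 1, 1, 3 and 0 for E. coli, IFN-γ, both and IL-4, but moved all calls with IL-4 from 79 higher and 37 lower to 45 and 29. On the recovered reads edgeR called 127 and 85 there and DESeq2 128 and 81, with 0 of the 5 genes, and edgeR with the block, chosen after seeing the data, also called 0. Depth limits Zc3h12a and Elavl1 in the IL-4 experiment, where they rest on as few as 16 and 23 reads.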
